A study of Mus musculus with 6 samples.

Results

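The genes described here are the aminoacyl-tRNA synthetases of mouse and the proteins that hold several of them together. They were chosen by name, as a list of 39 genes made of 20 cytosolic synthetases, 16 mitochondrial synthetases and 3 scaffolds of the multi-synthetase complex. Of these, 38 were in the count table of 22969 gene identifiers, and all 38 passed the filter on low counts. The level of Iars2, the mitochondrial isoleucyl enzyme, was not analysed here.

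A synthetase joins an amino acid to its matching tRNA, the step that sets which residue a codon receives. The cytosolic enzymes charge tRNA for ribosomes that read nuclear messages. The mitochondrial enzymes, encoded in the nucleus and imported, charge tRNA for the few proteins made inside mitochondria. Several cytosolic enzymes sit in a complex built on Aimp1, Aimp2 and Eef1e1. When charging falls short, uncharged tRNA activates the kinase Gcn2 (gene Eif2ak4), and the factor Atf4 then raises amino acid enzymes, transporters and many cytosolic synthetases. Blood stem cells keep their protein synthesis lower than the progenitors they give rise to.

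The libraries came from hematopoietic stem cells sorted from adult bone marrow of C57BL/6 mice as lineage-negative, Sca-1+ and c-Kit+ cells with CD150 and without CD48, about 500 cells per library. All mice carried floxed alleles of Rbfox2, an RNA-binding regulator of splicing. The 3 controls were Rbfox2-fl/fl without Cre, and the other 3 were Vav1-cre; Rbfox2-fl/fl, in which Cre is driven in blood cells. Libraries were made with Smart-seq2, which amplifies whole cDNAs and carries no molecular identifiers. The sources used here do not give the exon removed or an age beyond adult.

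Libraries held 47895459 to 55151484 counts in control and 23474895 to 35650284 in those labelled Rbfox2-deleted. Controls 1 and 3 were far closer to each other (chi-square per degree of freedom 3.44) than any other pair of libraries (156 to 808). Their counts were summed and counted as 1 sample, which gives n = 2 for control and n = 3 for the libraries labelled Rbfox2-deleted. Rbfox2 had 238, 11 and 250 counts in controls 1, 2 and 3 and 2, 87 and 10 in libraries 1, 2 and 3 labelled Rbfox2-deleted. Control 2 and deleted library 2 therefore went against their labels, so each higher or lower that follows is one between labels. Library 1 of the latter group stood apart, with 14154 genes detected against 15950 to 17087 elsewhere. By Xist, libraries 1 and 3 of that group came from females (2821 and 2467 counts, against at most 55 in the others). Markers of the sort were present. Their summed CPM (counts scaled to library size with TMM factors, as in all levels given here) was 1793 and 1864 in control. It was 1563 to 1714 in the libraries labelled Rbfox2-deleted, and Cd48 was at most 0.0772 CPM. The sum hides Ly6a, which encodes Sca-1, at 645 and 875 CPM in the control samples. In libraries 1, 2 and 3 labelled Rbfox2-deleted it was at 392, 311 and 363 CPM. Every one of these lay below both control samples, as for 17.2% of all genes (log2 fold change -1.10, SE 0.25, edgeR adjusted p = 0.387). Of the 9 markers, 6 had a log2 fold change above 0 and 3 below.

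Lists of other cell types also differed between libraries. Over 7 erythroid markers, of which 5 were tested, the summed level was 119.6 and 182 CPM in control and 119 to 558 CPM in the libraries labelled Rbfox2-deleted, with library 1 highest, and Car1 was at 0 throughout. Over 5 megakaryocyte markers it was 266 and 290 CPM in control and 52.2 to 209 CPM. The 9 myeloid markers summed to 2878 and 2106 CPM in control and 1639 to 2012 CPM. The 6 B cell markers, nearly all Cd79b, summed to 316 and 226 CPM in control and 127 to 212 CPM. The 7 T and NK cell markers gave 87.2 and 118 CPM in control and 104 to 199 CPM, and the 8 stromal and endothelial markers 8.03 and 10.4 CPM in control and 14.1 to 38.8 CPM. The part of these shifts in the values of the synthetases was not tested. With bulk RNA, fewer cells of a type and less RNA per cell cannot be told apart.

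The comparison was of stem cells labelled Rbfox2-deleted with control. Both sets of enzymes had a higher summed level there, and the scaffolds a lower one. The 20 cytosolic enzymes summed to 764 CPM in controls 1 and 3 and 747 CPM in control 2, against 1547, 1624 and 1524 CPM in libraries 1, 2 and 3 labelled Rbfox2-deleted, a ratio of means of 2.07. The 15 mitochondrial enzymes summed to 326 and 264 CPM in control and 619, 555 and 529 CPM in those libraries, a ratio of 1.92. The 3 scaffolds summed to 421 and 470 CPM in control and 253, 328 and 253 CPM, a ratio of 0.625. In none of the 3 sums did the groups overlap, and this held with upper quartile, DESeq2-style and no scaling factors, where the ratios ran from 1.65 to 2.20, from 1.52 to 2.02 and from 0.498 to 0.668.

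**Figure D1:**
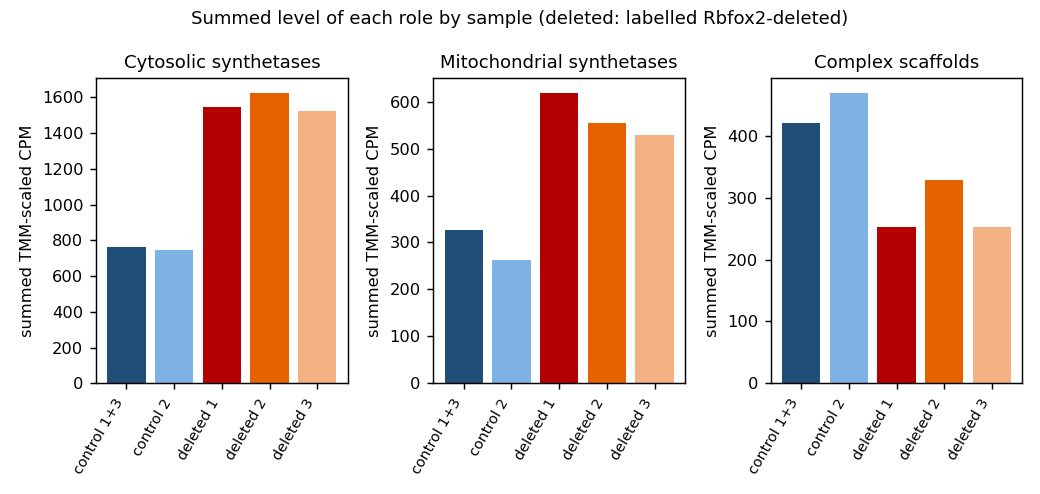
Bars give the summed TMM-scaled CPM of the 20 cytosolic synthetases, the 15 mitochondrial synthetases and the 3 scaffolds in each of the 5 samples, with the axes starting at 0. Both enzyme sets stand higher, and the scaffolds lower, in all 3 libraries labelled Rbfox2-deleted than in either control sample.

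Sums over genes hide how uneven the members were. Farsa, Kars and Hars, the most abundant cytosolic enzymes in control, made up 16.7%, 19.6% and 14.2% of the cytosolic difference. Without them the other 17 still summed to 449 and 446 CPM in control and 918, 809 and 819 CPM in libraries 1, 2 and 3 labelled Rbfox2-deleted. On the mitochondrial side, Rars2, Sars2, Lars2 and Tars2 made up 27.5%, 19.4%, 17.7% and 14.8% of the difference. The shares of Sars2 and Lars2 rested on library 1 labelled Rbfox2-deleted, and without it those of Rars2, Sars2, Lars2 and Tars2 were 19.0%, 1.97%, 2.81% and 26.8%. The scaffold difference lay mostly in Aimp2, with 63.5%.

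No member passed the edgeR quasi-likelihood test after Benjamini-Hochberg adjustment over 12350 genes, and neither did any other gene (background 0%). The smallest adjusted p of any member was 0.387. DESeq2 on the same genes called 2 members, both higher, Gars (adjusted p = 0.0318) and Rars2 (adjusted p = 0.0407), where 1.01% of all genes were called higher and 0.453% lower. DESeq2 on all genes with a count called 4 members higher, adding Yars (adjusted p = 0.0493) and Dars (adjusted p = 0.0399), where 1.15% of genes were called higher and 1.16% lower.

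Of the 20 cytosolic enzymes, 17 had a log2 fold change above 0 (libraries labelled Rbfox2-deleted minus control), against 53.5% of all genes, and their median was 1.13 against 0.11 for all genes. With upper quartile factors the median of all genes was -0.20, 13 of 20 lay above 0, and the cytosolic median was 0.84. Relative to all genes the cytosolic median was 1.02 with TMM and 1.04 with upper quartile factors. For 9 cytosolic enzymes every library labelled Rbfox2-deleted lay above both control samples, which 14.9% of all genes did, and for 1, Lars, every one lay below, as for 17.2% of all genes. At an unadjusted edgeR p under 0.05, 7 were higher (Gars, Kars, Hars, Yars, Farsa, Sars and Dars) and 0 lower, against 5.33% and 4.56% of all genes. Over all members such genes numbered 8, but 3 without control 2, 1 without controls 1 and 3, and 4 with sex as a covariate.

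Gars, the glycyl enzyme, whose gene supplies both cytosol and mitochondria, had the smallest p of the members (ENSMUSG00000029777, mm10 chromosome 6, 55038007 to 55079500, protein coding, counted over exons). The 250 bases before its RefSeq start (GRCm38.p6, chr6:55037751-55038000, plus strand) are shown because they hold a match to TGATGNAA, the core of the element that Atf4 binds with C/EBP partners. Capitals mark the match, which reads on the opposite strand. The Kars sequence (chr8:112011355-112011604, minus strand) is shown beside it as that of the member with the next smallest p, with no match to either motif searched.

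Gars: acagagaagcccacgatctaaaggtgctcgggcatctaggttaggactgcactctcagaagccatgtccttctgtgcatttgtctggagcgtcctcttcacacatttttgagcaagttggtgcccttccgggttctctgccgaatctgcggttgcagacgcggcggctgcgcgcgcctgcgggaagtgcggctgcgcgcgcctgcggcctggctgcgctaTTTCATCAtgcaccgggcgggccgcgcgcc
Kars: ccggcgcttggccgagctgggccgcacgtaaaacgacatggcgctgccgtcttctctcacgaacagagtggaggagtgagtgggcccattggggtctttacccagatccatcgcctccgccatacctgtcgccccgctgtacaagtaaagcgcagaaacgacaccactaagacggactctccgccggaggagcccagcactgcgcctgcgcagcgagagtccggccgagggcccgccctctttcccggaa

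The motifs TGATGNAA and CACGTG, the E-box that MYC and its relatives bind, were searched on both strands of the 250 bases before the start. RefSeq promoters were matched by symbol for 13 cytosolic enzymes, 14 mitochondrial enzymes (Iars2 among them) and 3 scaffolds. A match is a description of letters, not of binding. TGATGNAA stood in 3 of the 13 cytosolic promoters (23.1%), Gars, Tars and Aars, and in 3.53% of 27018 promoters of all genes. CACGTG stood in 3 of 13 as well, Farsb, Iars and Aars, and in 6.05% of all promoters. No mitochondrial enzyme or scaffold promoter held either motif. Bases just after the RefSeq start lay in an annotated transcript for 25 of the 30 members searched. For Aars, Qars and Tars2 the bases searched lie wholly inside the gene as annotated in GENCODE M21. Both Aars matches are thus within its annotated bounds and not before them. The matches are printed on the strand of the motif, with the motif in capitals, so that their flanks can be compared.

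Gars: ggtgcaTGATGAAAtagcgc
Tars: accagcTGATGCAAcgggac
Aars, TGATGNAA: ctcggcTGATGCAAtgctca
Aars, CACGTG: ccctgtCACGTGacactc
Farsb: aggcatCACGTGagacag
Iars: tcgccaCACGTGttgttt

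The Gars match begins 30 bases before the start, and that of Tars 15 bases before it. In Aars the TGATGNAA match begins 112 bases and the CACGTG match 146 bases before the start. The genes with a match did not share one value. Gars was higher in every library labelled Rbfox2-deleted, as given next, while Tars had a log2 fold change of -0.09 (SE 0.92) and Aars one of 0.11 (SE 2.03).

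Gars was at 15.9 CPM in controls 1 and 3, at 26.1 CPM in control 2, and at 107, 80.3 and 78.5 CPM in libraries 1, 2 and 3 labelled Rbfox2-deleted. The groups did not overlap, and the lowest of the latter was well above the higher control. The difference came to 2.08 in log2 fold change (SE 0.52, edgeR adjusted p = 0.387). Across the 3 libraries labelled Rbfox2-deleted its coefficient of variation was 17.9%, where that of Rars2 was 52.1%.

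Kars, the lysyl enzyme, is a member of the complex and also serves mitochondria (ENSMUSG00000031948, chromosome 8, 111993443 to 112011323). It had 85.7 and 90.2 CPM in the control samples and 167, 331 and 241 CPM in libraries 1, 2 and 3 labelled Rbfox2-deleted. All 3 lay above control, library 1 least (log2 fold change 1.49, SE 0.38, edgeR adjusted p = 0.387). The annotation lists a processed pseudogene, Kars-ps1, which makes its count uncertain. Pseudogenes of the other members are not given here.

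Hars, the histidyl enzyme (ENSMUSG00000001380), had 73.8 and 62.1 CPM in the control samples and 208, 229 and 113 CPM in libraries 1, 2 and 3 labelled Rbfox2-deleted. The groups did not overlap (log2 fold change 1.43, SE 0.42, edgeR adjusted p = 0.387). It lies head to head with Hars2, and 195 exonic bases of the pair overlap on opposite strands, so reads there cannot be assigned without strand.

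Yars, the tyrosyl enzyme (ENSMUSG00000028811, chromosome 4, 129189760 to 129219607), had 15.4 and 18.2 CPM in the control samples and 70.9, 82.9 and 40.8 CPM in libraries 1, 2 and 3 labelled Rbfox2-deleted. Each of the 3 was above control (log2 fold change 1.95, SE 0.60, edgeR adjusted p = 0.393).

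Farsa, the alpha subunit of phenylalanyl-tRNA synthetase (ENSMUSG00000003808, chromosome 8, 84856989 to 84869257), was the most abundant cytosolic enzyme. It had 156 and 149 CPM in the control samples and 255, 256 and 351 CPM in libraries 1, 2 and 3 labelled Rbfox2-deleted (log2 fold change 0.92, SE 0.29, edgeR adjusted p = 0.399). Farsb, which encodes the beta subunit of the same enzyme, had 35.0 and 24.2 CPM in control and 35.9, 105 and 85.1 CPM in those libraries. Library 1 stood only just above controls 1 and 3 for Farsb, while for Farsa it stood with library 2.

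Sars, the seryl enzyme (ENSMUSG00000068739, chromosome 3, 108424865 to 108445209), had 49.1 and 48.4 CPM in the control samples and 217, 99.2 and 94.4 CPM in libraries 1, 2 and 3 labelled Rbfox2-deleted. Its excess was largest in library 1 (log2 fold change 1.49, SE 0.51, edgeR adjusted p = 0.432). Dars, the aspartyl enzyme of the complex (ENSMUSG00000026356, chromosome 1, 128363707 to 128417368), had 21.6 and 23.4 CPM in control and 68.7, 49.97 and 68.4 CPM (log2 fold change 1.47, SE 0.53, edgeR adjusted p = 0.454). Its 3 libraries labelled Rbfox2-deleted lay close together, well apart from control.

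Rars, the arginyl enzyme of the complex (ENSMUSG00000018848, chromosome 11, 35808381 to 35834506), had 18.8 and 13.2 CPM in the control samples and 69.1, 19.9 and 63.2 CPM in libraries 1, 2 and 3 labelled Rbfox2-deleted. Here library 2 was barely above controls 1 and 3 (log2 fold change 1.66, SE 0.78, edgeR adjusted p = 0.573).

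Lars, the leucyl enzyme of the complex (ENSMUSG00000024493), ran the other way. It had 60.04 and 56.1 CPM in the control samples and 0.455, 39.9 and 17.4 CPM in libraries 1, 2 and 3 labelled Rbfox2-deleted. All 3 lay below control, and library 1 held 9 counts (log2 fold change -1.59, SE 1.39, edgeR adjusted p = 0.853).

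In none of the other 10 cytosolic enzymes did every library labelled Rbfox2-deleted lie on the same side of both control samples. For Wars, Mars1, Vars, Nars and Tars, libraries 2 and 3 both lay above both control samples, as for 27.7% of all genes. For Eprs both lay below, as for 26.8% of all genes. Iars, the isoleucyl enzyme, had 137 CPM in library 1 labelled Rbfox2-deleted and 2.79 to 8.21 CPM in the other 4 samples. Its log2 fold change of 3.12 (SE 1.93) turned to -0.72 without that library. Wars, the tryptophanyl enzyme, which interferon induces, had 11.1 and 7.84 CPM in control and 6.27, 46.9 and 59.0 CPM, so that libraries 2 and 3 stood high and library 1 did not.

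Aars, the alanyl enzyme, had few counts and was at 0.799 and 7.99 CPM in the control samples, and 1403 of its 9282 exonic bases are shared, mostly with Exosc6 on the same strand. Mars1 and Vars, the methionyl and valyl enzymes, had log2 fold changes of 0.84 (SE 0.77) and 0.48 (SE 0.59). For Nars, Qars and Eprs, which charge asparagine, glutamine, and glutamate with proline, the values were 0.26 (SE 0.58), 0.26 (SE 0.85) and 0.13 (SE 0.49). For the cysteinyl enzyme Cars the log2 fold change was -0.01 (SE 0.98). In Eprs the samples lay within 46.2 to 73.9 CPM, while in Cars the libraries labelled Rbfox2-deleted spread from 8.70 to 41.8 CPM around control values of 17.95 and 24.0 CPM.

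**Figure D2:**
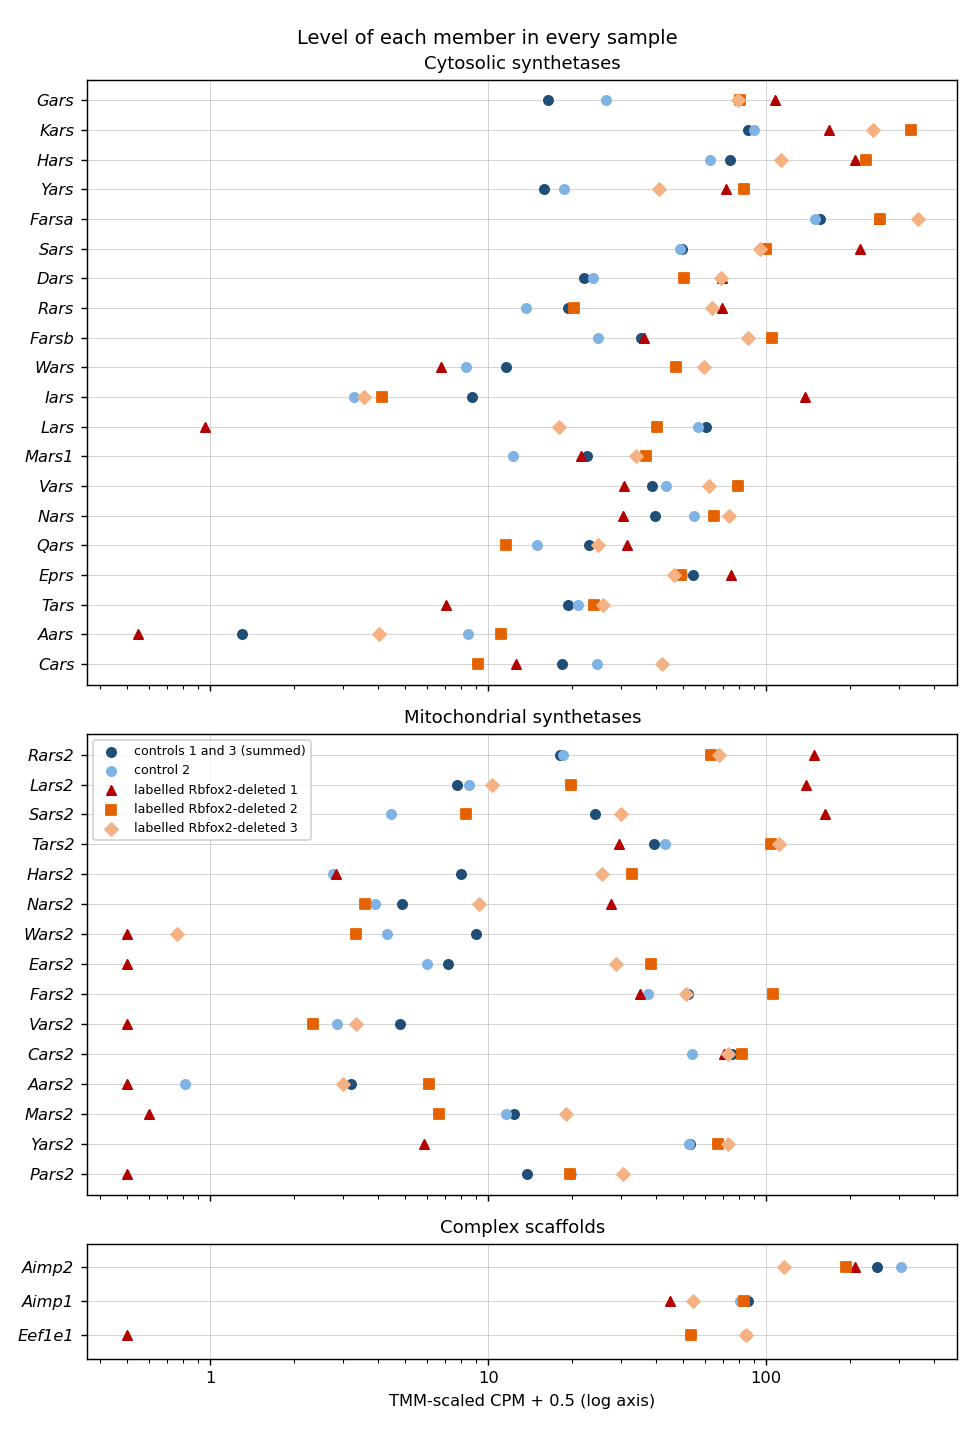
Each row is 1 member, and points give its TMM-scaled CPM plus 0.5 on a log axis in the 5 samples (circles control, other shapes the libraries labelled Rbfox2-deleted), ordered by edgeR p within each role. From Gars to Farsb all 3 libraries labelled Rbfox2-deleted lie to the right of both control samples, and library 1 (triangles) forms the far left point of many mitochondrial enzymes.

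The cytosolic enzymes were also grouped by place in the complex and by class. The 8 enzymes held in it (Dars, Eprs, Iars, Kars, Lars, Mars1, Qars, Rars) had 7 members above 0 and a median log2 fold change of 1.15. The 12 free enzymes had 10 above 0 and a median of 1.13. Without library 1 labelled Rbfox2-deleted, an alternative chosen after seeing the data, 4 of the 8 held enzymes lay above 0 (median 0.47) and 12 of the 12 free ones (median 0.98), Iars, Eprs and Qars being then below 0 with Lars. By fold of the catalytic domain, the 10 class II enzymes had 9 above 0 and a median of 1.39, and the 9 class I enzymes 7 above 0 and a median of 0.84, Eprs belonging to both classes. Without that library they had 10 of 10 and 6 of 9 above 0. None of these differences was tested.

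Of the 15 mitochondrial enzymes measured, 11 had a log2 fold change above 0, against 53.5% of all genes, with a median of 0.85. Without library 2 labelled Rbfox2-deleted 8 lay above 0 and the median was 0.135, and without control 2 the median was 0.33. Groups did not overlap for 2 of the 15 that were higher, Rars2 and Lars2, and for 1 that was lower, Wars2, shares no larger than the 14.9% and 17.2% of all genes. At an unadjusted p under 0.05, 1 was higher (Rars2) and 0 lower, near the 5.33% and 4.56% of all genes. The median was 0.36 in library 2 and 0.89 in library 3 labelled Rbfox2-deleted but -0.74 in library 1, where the median of all genes was -0.45. The cytosolic medians in libraries 1, 2 and 3 were 0.63, 0.98 and 0.97.

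Rars2, the mitochondrial arginyl enzyme (ENSMUSG00000028292, chromosome 4, 34614957 to 34660167), had 17.6 and 18.1 CPM in the control samples and 149, 62.6 and 67.3 CPM in libraries 1, 2 and 3 labelled Rbfox2-deleted. The controls nearly coincided and every library of the other group lay far above them (log2 fold change 2.38, SE 0.61, edgeR adjusted p = 0.387). Lars2, the leucyl enzyme (ENSMUSG00000035202, chromosome 9, 123366927 to 123462666), had 7.19 and 8.05 CPM in control and 138, 19.3 and 9.85 CPM. Its log2 fold change of 2.87 (SE 1.31, edgeR adjusted p = 0.557) rested mainly on library 1 and was 0.92 without it.

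Wars2, the tryptophanyl enzyme (ENSMUSG00000004233, chromosome 3, 99141068 to 99239186), had 8.53 and 3.81 CPM in the control samples and 0, 2.83 and 0.257 CPM in libraries 1, 2 and 3 labelled Rbfox2-deleted. All 3 lay below control at low levels, and libraries 1 and 3 held 0 and 10 counts (log2 fold change -2.57, SE 2.13, edgeR adjusted p = 0.830).

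Library 1 labelled Rbfox2-deleted had 0 counts for 6 members, Aars2, Ears2, Pars2, Vars2, Wars2 and Eef1e1, and under 10 counts for 9. No other library had a member under 10 counts. Of the mitochondrial enzymes, 6 of 15 were under 10 counts there, against 2 of 20 cytosolic enzymes and 34.4% of all genes tested. Among all members it was the lowest of the 5 samples for 17 and the highest for 11, or 44.7% and 28.9%, near the 40.5% and 28.6% of all genes.

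Ears2, which loads glutamate in mitochondria, shows how this library bore on a value. It had 6.68 and 5.53 CPM in the control samples, 37.9 and 28.4 CPM in libraries 2 and 3 labelled Rbfox2-deleted, and 0 in library 1. Its log2 fold change was 1.85 (SE 2.20) with library 1 and 2.43 without it (edgeR adjusted p = 0.0689). Hars2 likewise had 32.4 and 25.1 CPM in libraries 2 and 3 against 7.51 and 2.27 CPM in control, and 2.33 CPM in library 1.

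Tars2, the threonyl enzyme, had 39.1 and 42.7 CPM in control, 103 and 111 CPM in libraries 2 and 3, and 29.1 CPM in library 1. Sars2 and Nars2, the seryl and asparaginyl enzymes, stood highest in library 1, at 163 and 27.2 CPM, while their values in library 2 were 7.79 and 3.12 CPM. Yars2 and Mars2, the tyrosyl and methionyl enzymes, had 5.36 and 0.101 CPM in library 1, and their values in the other libraries of that group were 66.5 and 72.1 CPM and 6.13 and 18.6 CPM. Cars2, the cysteinyl enzyme, varied least over the libraries labelled Rbfox2-deleted (coefficient of variation 7.95%), with 53.5 to 81.3 CPM over the 5 samples. Of the remaining 4, the log2 fold changes were 0.52 for Fars2, 0.85 for Aars2, 0.01 for Pars2 and -1.09 for Vars2, with SE of 0.63, 2.32, 2.01 and 2.03.

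Without library 1 labelled Rbfox2-deleted, 10 cytosolic and 4 mitochondrial enzymes were higher at an unadjusted edgeR p under 0.05 and 0 of both were lower. Of the 3 scaffolds, 0 were higher and 1, Aimp2, was lower. Over all genes, 11.8% were higher and 11.9% lower. No gene passed after adjustment. Libraries 2 and 3 both lay above both control samples for 14 of 20 cytosolic enzymes (70.0%), for 6 of 15 mitochondrial enzymes (40.0%), and for 27.7% of all genes. Both lay below for 2 cytosolic enzymes and 1 mitochondrial enzyme, against 26.8% of all genes.

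**Figure D3:**
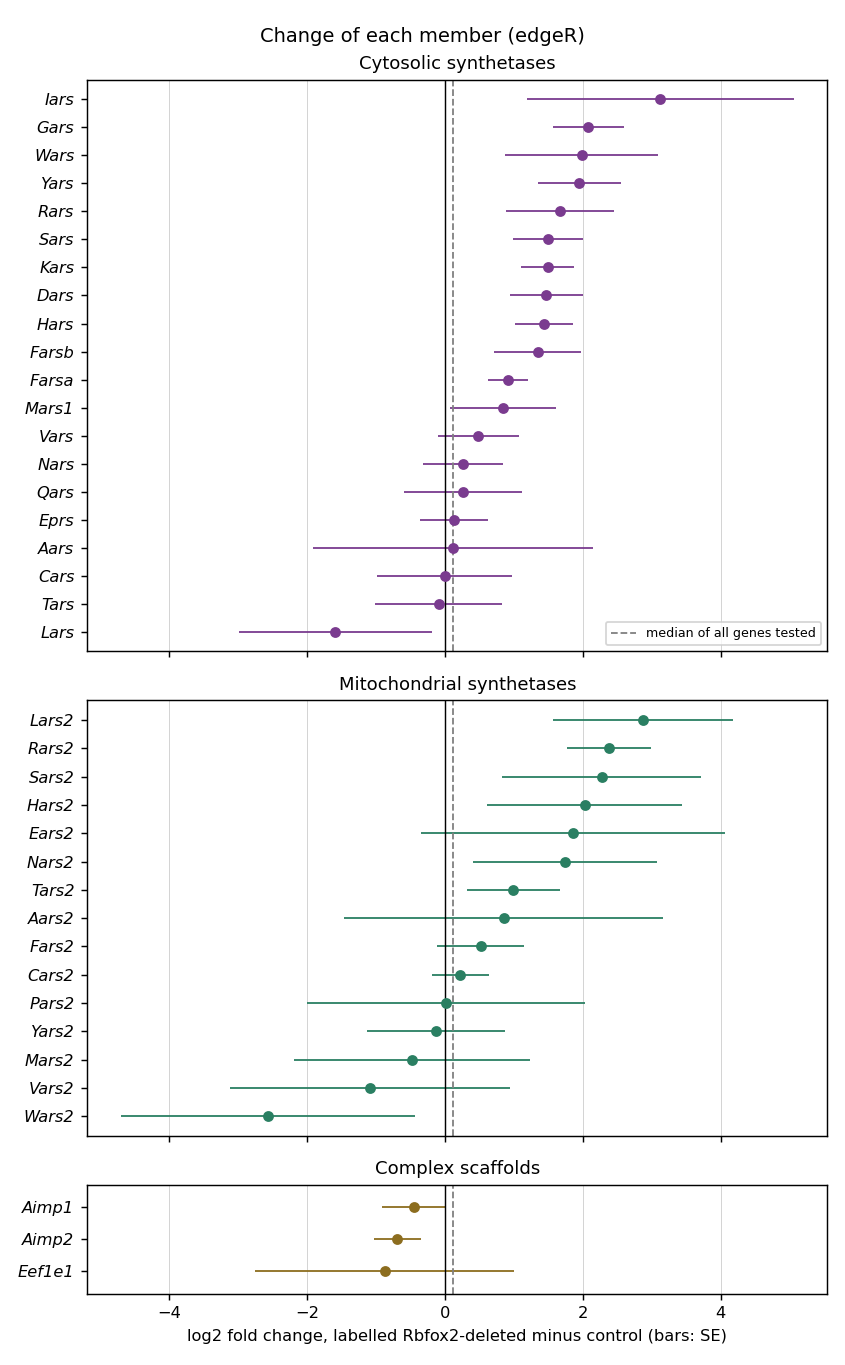
Points give the edgeR log2 fold change of each member (libraries labelled Rbfox2-deleted minus control), bars its SE, and the dashed line the median of all 12350 genes tested (0.11). Of 20 cytosolic enzymes 17 lie above 0, of 15 mitochondrial enzymes 11 do, and all 3 scaffolds lie below it.

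Enzymes for the same amino acid in the 2 compartments were compared over 15 pairs, with Eprs paired to both Ears2 and Pars2 and Farsa to Fars2. In 8 pairs both enzymes were above 0, in 4 the cytosolic enzyme alone was, in 3 the mitochondrial enzyme alone was, and in 0 were both below. Only 3 of 20 cytosolic and 4 of 15 mitochondrial enzymes were below 0, so few pairs could be below on both sides. The signs of Cars (-0.01), Tars (-0.09), Yars2 (-0.13) and Pars2 (0.01) came from values near 0 and far smaller than their SE. The arginyl, seryl and histidyl pairs lay high together, at 1.66 and 2.38, 1.49 and 2.27, and 1.43 and 2.03 on the log2 fold change scale. For Sars2 and Hars2, with SE of 1.45 and 1.41, the groups overlapped. The leucyl and tryptophanyl pairs were opposed, with Lars at -1.59 and Lars2 at 2.87, and Wars at 1.98 and Wars2 at -2.57. Lars, Lars2, Sars2 and Wars2 each had their most extreme value in library 1 labelled Rbfox2-deleted. Without it Sars2 was at 0.42 and Lars2 at 0.92.

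**Figure D4:**
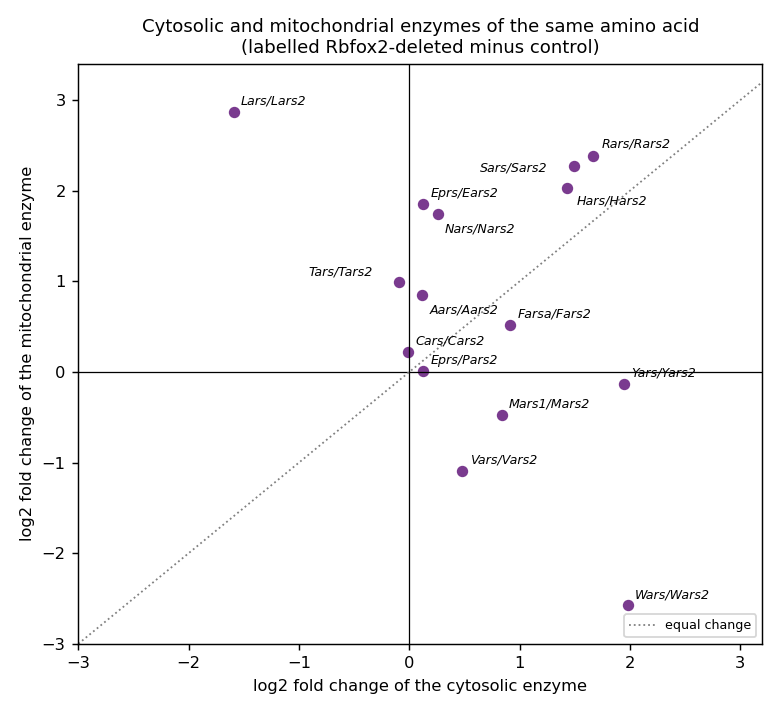
Each point is 1 of 15 pairs, placed by the edgeR log2 fold change (libraries labelled Rbfox2-deleted minus control) of the cytosolic enzyme (x axis) and of the mitochondrial enzyme for the same amino acid (y axis), with a dotted line of equal change. No pair lies below 0 on both axes, and Lars/Lars2 and Wars/Wars2 lie far from the line on opposite sides.

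Levels between genes were compared per length, as control CPM per kilobase of each gene's longest transcript in the annotation, so they depend on which form is expressed. Aimp2 was highest, at 235, followed by Farsa at 45.6, Kars at 36.4, Hars at 34.2 and Eef1e1 at 33.0. Kars, Hars and Eef1e1 lay close together, and the control SD of Hars (8.24 CPM over 1989 bases) exceeds its gap to both neighbours. The lowest were Aars2 at 0.449, Vars2 at 0.755 and Aars at 0.764 CPM per kilobase. In 11 of 15 pairs the cytosolic enzyme was the more abundant in control. The exceptions were the cysteinyl, arginyl, threonyl and tyrosyl pairs, where the ratio of cytosolic to mitochondrial level was 0.319, 0.794, 0.426 and 0.308.

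All 3 scaffolds had log2 fold changes below 0, with a median of -0.69. The groups did not overlap for 1, Aimp2, the core scaffold that links the enzymes of the complex (ENSMUSG00000029610, chromosome 5, 143902704 to 143909847). It had 251 and 305 CPM in the control samples and 208, 192 and 115 CPM in libraries 1, 2 and 3 labelled Rbfox2-deleted (log2 fold change -0.69, SE 0.34, edgeR adjusted p = 0.599). Its exons share 487 of 1654 bases with Eif2ak1 on the opposite strand, so its count is uncertain.

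Aimp1, a scaffold that is also the precursor of a secreted cytokine (ENSMUSG00000028029, chromosome 3, 132660499 to 132684370), had 85.6 and 80.2 CPM in the control samples and 44.6, 83.0 and 53.8 CPM in libraries 1, 2 and 3 labelled Rbfox2-deleted. Library 2 lay within the control values (log2 fold change -0.46, SE 0.46, edgeR adjusted p = 0.884). With sex as a covariate its value was 0.0011, at the point of no change.

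Eef1e1, the scaffold that anchors the methionyl enzyme (ENSMUSG00000001707, chromosome 13, 38644207 to 38659058), had 84.4 and 84.2 CPM in the control samples and 0, 53.0 and 84.4 CPM in libraries 1, 2 and 3 labelled Rbfox2-deleted. In counts these were 3867, 4048 and 4900 in controls 1, 2 and 3 and 0, 2043 and 3280 in the other libraries. Library 3 equalled control, so that the log2 fold change of -0.88 (SE 1.88, edgeR adjusted p = 0.961) rested on library 1 and, in part, library 2. Without library 1 it was -0.31, which is then also the scaffold median.

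The steps beside charging were read from lists of related genes, in none of which did any gene pass the edgeR test over all genes (background 0%). Of 10 genes listed as elongation factors, some of which carry charged tRNA to the ribosome, 6 lay above and 4 below 0 (median 0.40). For 5 of them every library labelled Rbfox2-deleted lay above both control samples, against 14.9% of all genes. For 2 every such library lay below, against 17.2% of all genes. Eef1b2, which reloads the carrier Eef1a with GTP, was at 672 and 733 CPM in control and 287, 433 and 471 CPM in libraries 1, 2 and 3 labelled Rbfox2-deleted (log2 fold change -0.82, SE 0.28, edgeR adjusted p = 0.436).

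In mitochondria, glutaminyl-tRNA is made by amidation of the product of Ears2, by an enzyme of 3 subunits, Gatb, Gatc and Qrsl1, and the initiator is formylated by Mtfmt. Of these 4 genes 3 lay above 0, with a median of 1.68, and for Gatb, Gatc and Qrsl1 every library labelled Rbfox2-deleted lay above control, as for 14.9% of all genes. Gatc had 44.2 and 38.0 CPM in control and 139, 115 and 83.6 CPM in libraries 1, 2 and 3 labelled Rbfox2-deleted (log2 fold change 1.45, SE 0.42, edgeR adjusted p = 0.387).

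Genes that make and mature tRNA were read as 3 lists. Of 23 genes of RNA polymerase III and its factors, 12 lay above and 11 below 0 (median 0.07), with Brf1, a factor that recruits the polymerase, at a log2 fold change of 1.39 (SE 0.49, edgeR adjusted p = 0.453). Of 22 tested genes of tRNA processing and export, 9 lay above and 13 below (median -0.15). The ligase of tRNA splicing, Rtcb, had 102 and 96.6 CPM in control and 268, 276 and 362 CPM in libraries 1, 2 and 3 labelled Rbfox2-deleted. Its groups did not overlap (log2 fold change 1.60, SE 0.29, edgeR adjusted p = 0.387), and DESeq2 called it (adjusted p = 0.0243) and Trmt10c, a subunit of mitochondrial RNase P (adjusted p = 0.0333).

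Of 42 tRNA modification genes, 27 lay above 0 (median 0.28), and Elp4, a subunit of the Elongator complex, had the smallest p (log2 fold change 2.77, SE 0.85, edgeR adjusted p = 0.3897). DESeq2 called this gene (adjusted p = 0.0435). All 6 genes of selenocysteine loading and of editing lay below 0 (median -0.70), with Sepsecs, the last enzyme of selenocysteinyl-tRNA synthesis, at -1.27 (SE 1.38, edgeR adjusted p = 0.896).

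The response to uncharged tRNA was read from 3 further lists. Of 17 tested genes of amino acid synthesis and other Atf4 targets, 11 lay above and 6 below 0 (median 0.20). Nupr1, a stress-induced chromatin protein and Atf4 target, was at 95.1 and 103 CPM in control and 17.5, 26.2 and 37.1 CPM in libraries 1, 2 and 3 labelled Rbfox2-deleted (log2 fold change -1.88, SE 0.52, edgeR adjusted p = 0.387). Of 12 amino acid transporters tested, 7 lay above 0 (median 0.37), and the glutamine carrier Slc1a5 had a log2 fold change of 1.02 (SE 0.44, edgeR adjusted p = 0.527). Of 6 genes of the eIF2 kinases and their partners, 4 lay above 0, and Eif2s1, the eIF2 subunit that they phosphorylate, had a log2 fold change of 1.13 (SE 0.36, edgeR adjusted p = 0.413).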

How the data were processed

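The authors deposited unnormalized read counts for each gene in 6 libraries. Per the submitters' processing notes they used Trimmomatic 0.39, featureCounts, DESeq2 1.36.0 and the mm10 build. Aligner, annotation, strand setting and the handling of multiply mapped reads: not given in the sources used here. Repeated identifiers (60, on 134 rows) were summed, and no member was among them. Rows with no matched symbol held 0.0131% of counts. Symbols, positions and exon overlaps came from GENCODE M21, and promoters from RefSeq GRCm38.p6. The test was edgeR 4.0.16 under R 4.3.3, using filterByExpr (minimum count 10, minimum total 15), TMM factors and a two-sided quasi-likelihood test with group as the only term, on 12350 genes, adjusted by Benjamini-Hochberg at 0.05. SE was computed as the size of the log2 fold change over root F. DESeq2 1.42.0 on the same genes was an alternative, as were other scalings, filters, covariates and omitted samples. The code was tested on simulated counts. Members and gene lists were chosen with earlier results of these data known, so patterns seen before are no independent support. Values in every sample were given, by rule, for members whose groups did not overlap, in order of p (up to 8 cytosolic, 4 mitochondrial). The same was done for the lowest of each role and all scaffolds. Of other lists the gene with the smallest p was named, except for most lists of cell type markers. Other genes were named after their values were seen. Only the Gars and Kars promoters were printed whole. The labels give separate mice, but since controls 1 and 3 were nearly alike, the p-values describe the spread of 5 samples only.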

Additional observations from a re-analysis of the deposited data

How the results depend on the processing

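Over 18 alternatives, 15 members (Gars, Kars, Hars, Yars, Farsa, Sars, Dars, Rars, Lars, Rars2, Lars2, Wars2 and the scaffolds) kept the direction of their log2 fold change, except Aimp1 with sex as a covariate (0.0011). By edgeR no gene and no member passed in any of them. DESeq2 called 181 genes and 2 members, and DESeq2 on all genes with a count, chosen after seeing the data, 478 genes and 4 members. Members at an unadjusted p under 0.05 numbered 8, 4 with the sex covariate, and 1 to 15 when samples were left out: 1 without controls 1 and 3 together, 3 without control 2, fits in which the lone control is assumed to vary like the others, and 15 without Rbfox2-deleted 1. The cytosolic median of 1.13 was 0.84 with upper quartile factors, where the median of all genes fell to -0.20, and 0.977 to 1.359 when samples were left out. The scaffold median of -0.69 was -1.06 with upper quartile factors and -0.47 with a length correction. It lay between -0.86 and -0.31 when samples were left out, at -0.31 without Rbfox2-deleted 1. The mitochondrial median of 0.85 lay between 0.135, without Rbfox2-deleted 2, and 0.93. With the replicate block on 6 separate libraries the cytosolic median was 0.875, and 0.863 with GC correction added; 9 and 8 members had an unadjusted p under 0.05. Deviations of same-numbered libraries from their group means had correlations of -0.046, 0.0024 and 0.070. Since controls 1 and 3 were nearly alike, their deviations were nearly the same. These correlations therefore cannot decide whether same-numbered libraries were paired. Counts of enzymes above control were added after seeing the data and stayed between 13 and 18 of 20 and between 8 and 13 of 15. Library 1 labelled Rbfox2-deleted had the fewest counts, and 34.4% of genes tested had under 10 counts there; the part of depth in this was not tested.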
